A study of Rattus norvegicus with 40 samples.

Results

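The 10 genes described here mark young neurons that migrate or extend an axon. They are the transcription factors Sox4 and Sox11, the microtubule protein Dcx, the collapsin response mediator proteins Dpysl3, Dpysl5 and Crmp1, the growth cone proteins Gap43 and Stmn2, and the beta-tubulins Tubb3 and Tubb2b. They were chosen by name with earlier results of these data known, and so were the gene lists set beside them. Their counts beside the shares of all probe sets are therefore descriptive. Each gene was read from the probe sets that the platform annotation assigns to it alone. All 10 genes had such probe sets, 21 in total, on an array where 14217 genes had at least 1. After dim probe sets were removed, 17 of the 21 remained and covered all 10 genes, among 10304 genes in all. A gene with several was represented by its brightest.

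Total RNA from the cerebral cortex of rats was measured on 40 single-channel Affymetrix arrays, 20 from rats given hypoxic preconditioning (a sublethal exposure to low oxygen) and 20 from rats given a sham treatment in normal oxygen. Samples are numbered 1 to 20 in each group and listed in blocks of 5, so each group falls into 4 runs of 5 arrays, called here by their numbers (1 to 5, for the first run, up to 16 to 20). The sources used here do not give the meaning of the runs, the strain, age or sampling time of the rats, the oxygen concentration or how long the exposure lasted. Separate animals are not stated either, and p-values therefore speak only of the spread between these samples, part of which may be technical. The 2 questions the design allows for these genes are how the sham level varied between runs and how the preconditioned arrays differed from the sham arrays, overall and in each run.

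In the developing cortex, newborn neurons switch on Sox4 and Sox11, which activate neuronal genes such as those of tubulin and doublecortin. Doublecortin and the tubulins build the microtubules of migrating neurons, while the collapsin response mediator proteins, Gap43 and Stmn2 control microtubules and the membrane skeleton at the tip of the growing axon. As neurons mature, Sox11 and Dcx are switched off in most of them, whereas Gap43, Stmn2 and Tubb3 remain expressed in adult neurons.

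Sox11 and Dcx had the largest differences between the first and the last run in both groups, and the 250 bases upstream of their annotated starts are shown for reference. The set of RefSeq promoters used here (assembly GRCr8) held such a sequence for 7 of the 10 genes, those other than Sox4, Gap43 and Stmn2. Both sequences run 5' to 3' on the minus strand, Sox11 at chr6:49738795-49739044 and Dcx at chrX:112304162-112304411, and capitals mark the motif found.
Sox11: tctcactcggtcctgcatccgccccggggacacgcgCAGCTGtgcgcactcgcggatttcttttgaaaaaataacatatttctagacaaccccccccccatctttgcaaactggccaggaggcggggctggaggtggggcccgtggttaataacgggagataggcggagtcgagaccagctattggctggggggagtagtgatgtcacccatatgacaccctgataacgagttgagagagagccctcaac
Dcx: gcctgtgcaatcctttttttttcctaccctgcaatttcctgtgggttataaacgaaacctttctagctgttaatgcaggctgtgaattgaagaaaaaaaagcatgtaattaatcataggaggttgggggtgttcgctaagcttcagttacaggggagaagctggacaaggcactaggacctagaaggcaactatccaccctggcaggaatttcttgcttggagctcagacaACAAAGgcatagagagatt
The Sox11 sequence holds CAGCTG, an E-box bound by neuronal basic helix-loop-helix factors, 214 bases before the start. The Dcx sequence holds ACAAAG, the core of a SOX site, 19 bases before the start. Searched on both strands over 33469 promoters of the same length, ACAAAG occurred in 16.3% and CAGCTG in 12%, against 2 of the 7 genes for each motif. CAGATG, another E-box, occurred in 14% of promoters and in 0 of the 7 genes. ACGTG, the core of a site for hypoxia-inducible factors, occurred in 16.6% of promoters and in 2 of the 7 genes, Dpysl3 and Crmp1. Dpysl3 has 2 annotated starts, and a motif before either was counted. These matches describe letters in a short window and were not tested as binding sites.

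Preconditioned arrays 5 and 6 stood apart from the others, with median log2 intensities of 5.59 and 5.53 against 5.71 to 5.82, and results that rest on them are given with and without them. The ratio of 3' to 5' actin controls, which falls as RNA is better preserved, lay between 1.38 and 1.90 on the 40 arrays, and that of GAPDH between 0.892 and 1.06. The filter on dim probe sets was passed by 7 genes of cortical projection neurons and by 6 of 7 striatal genes. Levels are log2 intensity of a probe set, which can be compared between arrays but not between genes. The number of arrays limits the precision.

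Sox11, Dcx and Dpysl3 differed between the runs of sham arrays. By limma's moderated F-test over the 4 sham runs, their adjusted p was 0.00135, 0.00163 and 0.00914, and 13.7% of all probe sets passed the same test. The other 7 members did not pass, and with the mean of its 2 probe sets Dcx did not either (0.0969). Dpysl5 passed with quantile normalization (0.028), in a fit of the sham arrays alone (0.0169) and without sham array 7 (0.045). Tubb3 passed with quantile normalization (0.0454). In bulk tissue, fewer young neurons and less of these transcripts per neuron cannot be told apart. A run also cannot be told apart from any processing batch it may be. Below, fell and rose compare runs by their numbers and imply no order in time.

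Sox11, a transcription factor of newborn neurons, was highest in the first run. Its log2 level in sham arrays 1 to 5 was 8.33, 8.40, 8.06, 8.31 and 8.07, with a mean of 8.23 ± 0.16 (SD, n = 5). Sham arrays 6 to 10 gave 7.45, 7.66, 7.73, 7.69 and 7.83, and sham arrays 11 to 15 gave 7.90, 7.81, 7.77, 7.92 and 7.88. In the last run, numbers 16 to 20, the values were 7.65, 7.39, 7.18, 7.45 and 7.49 (mean 7.43 ± 0.17). All 5 arrays of the first run lay above all 15 later ones, so the first and last runs did not overlap. The level was lower by 0.80 ± 0.14 (log2, SE) in 16 to 20 than in 1 to 5, which is 1.75-fold lower (limma adjusted p = 0.000302). Ordered by their means, the runs were 1 to 5, 11 to 15, 6 to 10 and 16 to 20, and no pair of neighbours in that order passed the test (limma adjusted p of 0.218, 0.829 and 0.293). The sham difference between 6 to 10 and 1 to 5 was -0.56 ± 0.14 (limma adjusted p = 0.0391). This call was lost without any of sham arrays 1, 2, 4, 6, 7, 8, 9 or 10, with limma adjusted p of up to 0.115, and it was also lost without the filter on dim probe sets (0.0835) and without a mean trend (0.0588).

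Dcx, the microtubule-associated protein of migrating neurons, was lowest in the last run. Sham arrays 1 to 5 gave 11.08, 11.23, 10.84, 10.88 and 10.84 (mean 10.97 ± 0.17), and sham arrays 6 to 10 gave 10.66, 10.85, 10.79, 10.89 and 10.80. Sham arrays 11 to 15 gave 10.85, 10.70, 10.67, 10.68 and 10.68, and sham arrays 16 to 20 gave 10.78, 9.91, 10.46, 10.25 and 10.30 (mean 10.34 ± 0.32). Array 16 reached the range of the middle runs and the other 4 of the last run lay below every earlier sham array. The first and last runs did not overlap and differed by -0.63 ± 0.12, or 1.55-fold (limma adjusted p = 0.000357). The last run was also lower than 6 to 10, by 0.46 ± 0.12 (limma adjusted p = 0.00783). Neighbouring runs, whose means fell in number order, did not differ by the test (limma adjusted p of 0.502, 0.938 and 0.0934). These values come from 1 of the 2 Dcx probe sets. The other, with a mean log2 level of 5.57, gave a difference of -0.16 ± 0.26 between the last and first runs, and with the mean of both probe sets the value was -0.40 and the call was lost (limma adjusted p = 0.0806).

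Dpysl3, a collapsin response mediator protein of growing axons, was lowest in the second run. Sham arrays 1 to 5 gave 10.14, 10.18, 10.03, 9.91 and 9.56, and sham arrays 6 to 10 gave 9.39, 8.80, 8.82, 9.32 and 9.29. Sham arrays 11 to 15 gave 9.44, 9.00, 9.47, 9.75 and 9.78, and sham arrays 16 to 20 gave 9.41, 9.32, 9.16, 9.78 and 9.52. The second run lay wholly below the first, while the third and the fourth overlapped both. The difference between 6 to 10 and 1 to 5 was -0.84 ± 0.18, or 1.79-fold lower (limma adjusted p = 0.0136). Between 16 to 20 and 1 to 5 it was -0.52 ± 0.18 (limma adjusted p = 0.0429). The latter call was lost with median centring (0.0685), without the filter (0.105), without a mean trend (0.0610), and without any of sham arrays 1, 2, 3, 4, 16, 17, 18 or 20 (up to 0.113). By their means the runs were ordered 1 to 5, 11 to 15, 16 to 20 and 6 to 10, and no neighbours differed by the test (limma adjusted p of 0.213, 0.928 and 0.266).

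**Figure D1:**
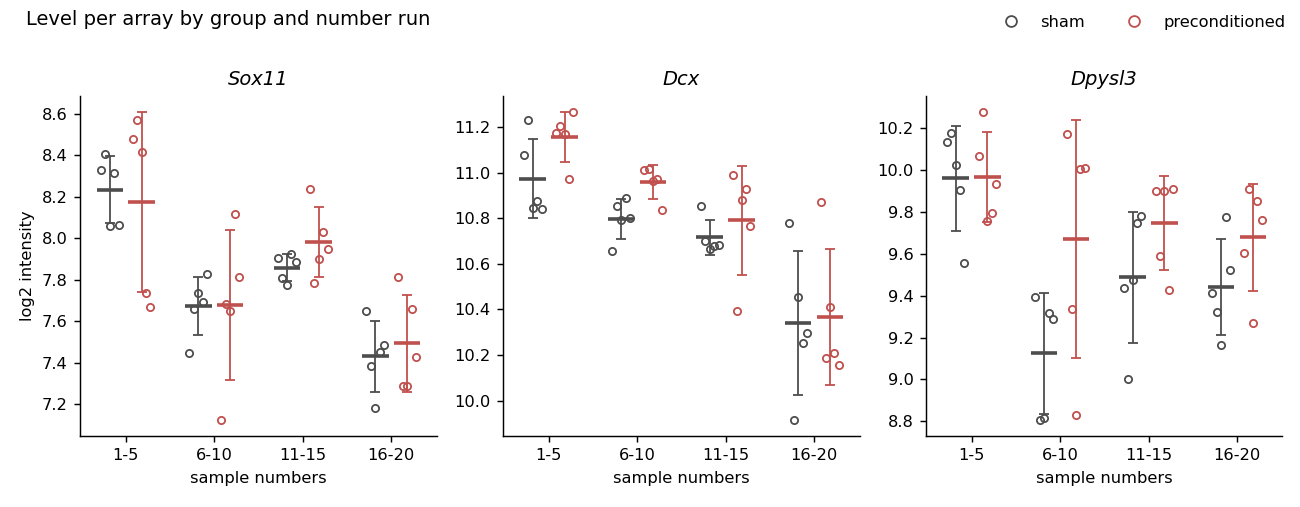
Log2 intensity of Sox11, Dcx and Dpysl3 (vertical axes, each with its own range) on each array, by number run (horizontal axis) and group, with open circles for arrays, thick lines for the mean of 5 arrays and whiskers for 1 SD. Sox11 is highest in run 1 to 5 of the sham group, Dcx is lowest in run 16 to 20 of both groups, and sham Dpysl3 is lowest in run 6 to 10.

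Of the 10 members, 3 were lower in sham 16 to 20 than in sham 1 to 5 (Sox11, Dcx and Dpysl3) and 0 were higher, where 14.8% of all probe sets were called, 7.88% lower and 6.94% higher. The median difference of the 10 was -0.12, against -0.01 over all probe sets. Sham arrays did not overlap between these runs for Sox11, Dcx and Dpysl5, all lower, where 5.63% of probe sets did the same. Between 6 to 10 and 1 to 5, 2 members were called, where 1.26% of probe sets were, and Sox11, Dpysl3 and Dpysl5 did not overlap, where 2.35% of probe sets were lower without overlap. Between 16 to 20 and 6 to 10, 1 member was called, where 11.4% were. In the other 3 pairs of sham runs limma called 0 members. At an unadjusted p under 0.05 it counted 1 for 11 to 15 against 6 to 10 (8.17% of all probe sets), 2 for 16 to 20 against 11 to 15 (16.2%) and 3 for 11 to 15 against 1 to 5 (13.5%). The adjusted calls over all probe sets in these pairs were 0.29%, 0.65% and 0.677%. Sox11 was called between 16 to 20 and 11 to 15 in a fit of the sham arrays alone (limma adjusted p = 0.0148) and without preconditioned arrays 5 and 6 (0.0458), and between 11 to 15 and 1 to 5 in the former (0.031). Dcx was called between 16 to 20 and 11 to 15 in a fit of the sham arrays alone (0.0496) and without sham array 16 (0.0155).

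Sox4, a transcription factor that acts with Sox11 in young neurons, gave -0.24 ± 0.09 between sham 16 to 20 and 1 to 5 (limma adjusted p = 0.0784), and all 6 measured Sox4 probe sets had negative differences, from -0.21 to -0.55. Of these 6, 2 others passed the test, at -0.30 and -0.49 (limma adjusted p of 0.0494 and 0.0186). The mean of the 6 probe sets gave -0.37 ± 0.12 and was called (limma adjusted p = 0.0278), and so was the representative probe set with quantile normalization (-0.30, 0.0199), without sham array 5 (0.0431) and without sham array 16 (0.0215). Dpysl5, which is enriched in young neurons, gave -0.18 ± 0.09 (limma adjusted p = 0.159). Its sham arrays 1 to 5 lay between 10.64 and 10.76 and its sham arrays 16 to 20 between 10.43 and 10.62, with no overlap. Between sham 6 to 10 and 1 to 5 Dpysl5 differed by -0.30 (limma adjusted p = 0.0675). That difference was called with quantile normalization (0.0317) and in a fit of the sham arrays alone (0.0193). It was also called without preconditioned arrays 5 and 6 (0.0459) and without sham array 7 (0.0436).

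The other 5 members had smaller sham differences between the last and first runs. Crmp1, a collapsin response mediator protein, differed by -0.02 ± 0.08, Tubb2b, a tubulin of migrating neurons, by -0.01 ± 0.10, and Tubb3, the neuronal beta-tubulin, by -0.06 ± 0.09. Gap43, a membrane protein of growth cones, gave 0.10 ± 0.10, and Stmn2, which destabilises microtubules in growth cones, 0.15 ± 0.08. The limma adjusted p of these 5 lay between 0.226 and 0.944. Their 95% intervals reached from -0.24 to 0.32, and the change of Sox11 lay outside them. The Tubb3 probe set is of a type that can match several transcripts.

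The preconditioned arrays are other arrays of the same runs, so they are not an independent repeat of the sham comparison. They showed lower levels of 6 members in 16 to 20 than in 1 to 5 and higher levels of 0. Among all probe sets 17.6% were called there, 8.03% lower and 9.58% higher, and the members' median was -0.33 against 0.01 over all probe sets. Dcx fell by 0.79 ± 0.12 (limma adjusted p = 7.06e-06). Preconditioned arrays 1 to 5 had Dcx levels of 11.17, 11.21, 11.17, 10.97 and 11.27, and arrays 16 to 20 had 10.87, 10.19, 10.41, 10.21 and 10.16. These did not overlap. With the mean of both Dcx probe sets the difference was -0.43 and was not called (limma adjusted p = 0.0512).

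Sox11 fell by 0.68 ± 0.14 between the same preconditioned runs (limma adjusted p = 0.000877). Its values in arrays 1 to 5 were 8.48, 8.57, 8.42, 7.74 and 7.67, and in arrays 16 to 20 they were 7.81, 7.29, 7.29, 7.66 and 7.43. Arrays 4 and 5 of the first run reached down to the range of the last run, so here the runs overlapped. Sox4 fell by 0.35 ± 0.09 (limma adjusted p = 0.00902), and the mean of its 6 probe sets gave -0.30, which was not called (0.0742).

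Dpysl5 fell by 0.35 ± 0.09 and Crmp1 by 0.33 ± 0.08 (limma adjusted p of 0.00391 and 0.00300), each without overlap between the runs. Tubb2b fell by 0.33 ± 0.10, also without overlap (limma adjusted p = 0.0169), and this call was lost without preconditioned array 5, which had the highest Tubb2b level of all (difference -0.23, limma adjusted p = 0.0838), and in a fit of the preconditioned arrays alone (0.0737). In all, 4 members were lower without overlap (Dcx, Dpysl5, Crmp1 and Tubb2b), where 5.5% of probe sets were. Under quantile normalization the falls of Crmp1 and Tubb2b were still called and measured -0.16 and -0.09.

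The remaining 4 members were not called in preconditioned arrays. Dpysl3 differed by -0.29 ± 0.18, Gap43 by -0.23 ± 0.10, Tubb3 by -0.13 ± 0.09 and Stmn2 by -0.11 ± 0.08, with limma adjusted p from 0.0922 to 0.390. The signs of Gap43, Tubb3 and Stmn2 turned under quantile normalization, with values of 0.01, 0.02 and 0.14, and for Stmn2 the rise was then called (limma adjusted p = 0.0163). Without preconditioned arrays 5 and 6 the members' median was -0.28 and all 6 calls remained, with limma adjusted p from 2.75e-05 to 0.0282.

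Contrasts of further preconditioned runs were added after the design was fixed. Between 6 to 10 and 1 to 5, Sox11 (-0.50 ± 0.14, limma adjusted p = 0.0388) and Dpysl5 (-0.31 ± 0.09, 0.0309) were called, where 3.98% of probe sets were. Neither call held without preconditioned arrays 5 and 6 (0.0515 and 0.15). The Sox11 call was also lost without any of preconditioned arrays 1, 2, 3, 6, 7 or 8, and that of Dpysl5 without any of 4, 5, 6, 7 or 10 (up to 0.151 and 0.0837). limma called 0 members between 11 to 15 and 6 to 10 (1 at an unadjusted p under 0.05), where 8.91% of probe sets were called and 23.9% had such a p. It called 0 between 16 to 20 and 11 to 15 (5 at an unadjusted p under 0.05), where the shares were 0.274% and 13%.

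Several of these contrasts moved with the arrays that stood apart. Tubb3 differed by 0.14 ± 0.09 between preconditioned 11 to 15 and 6 to 10 (limma adjusted p = 0.347). Without arrays 5 and 6 the value was 0.25 ± 0.07 and was called (0.0132), as it was without array 6 alone (0.0369) and with quantile normalization (0.0412). Between 6 to 10 and 1 to 5, Tubb3 was called lower without array 6 alone (-0.31, limma adjusted p = 0.0247), and without both arrays it was not (-0.23, 0.0801). Sox11 differed by -0.49 ± 0.14 between preconditioned 16 to 20 and 11 to 15 (limma adjusted p = 0.123), and was called without arrays 5 and 6 (0.0451), which lie in other runs and change the spread and the adjustment but not the difference. Dcx differed by -0.42 ± 0.12 there (limma adjusted p = 0.0977), and was called without preconditioned array 12 (0.0269) or 16 (0.011).

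**Figure D2:**
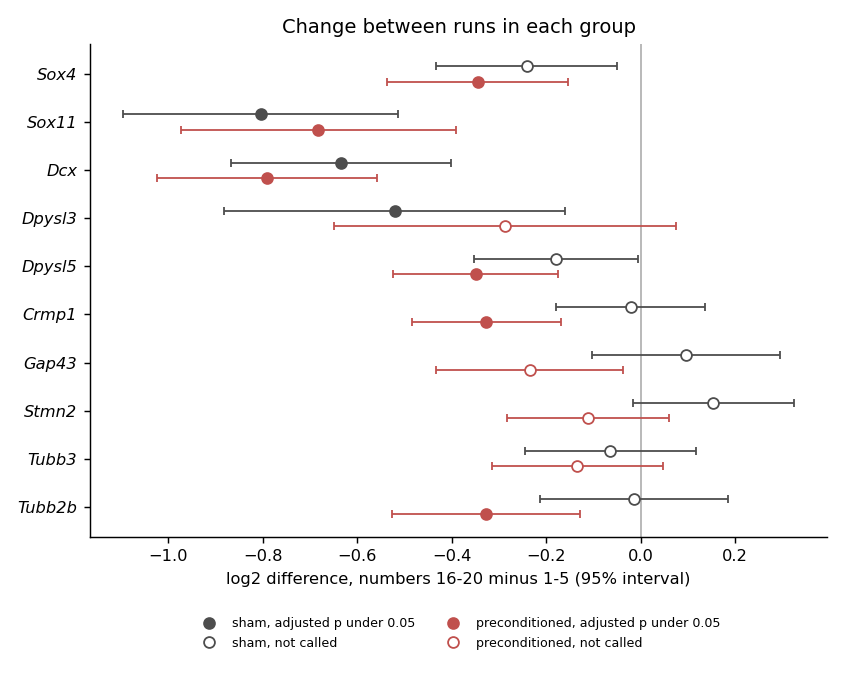
Difference in log2 intensity between numbers 16 to 20 and 1 to 5 (horizontal axis) for the 10 members, in sham and in preconditioned arrays, with 95% intervals of the limma fit and filled points for an adjusted p under 0.05. Sox11 and Dcx are called lower in both groups, Dpysl3 in sham arrays, and Sox4, Dpysl5, Crmp1 and Tubb2b in preconditioned arrays.

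Calls in 1 group and not in the other do not show that the groups differ, so the change from 1 to 5 to 16 to 20 was compared between them directly, in a contrast added after the design was fixed. limma called 0 members (smallest adjusted p 0.286) and 0.424% of all probe sets. At an unadjusted p under 0.05 there were 4 members, Crmp1, Gap43, Stmn2 and Tubb2b, against 11.2% of probe sets. Their changes were more negative in preconditioned arrays by 0.31 ± 0.11, 0.33 ± 0.14, 0.27 ± 0.12 and 0.31 ± 0.14. Under quantile normalization these values were -0.10, -0.04, 0.07 and -0.003, so the sign for Stmn2 turned. For Sox4 the difference was -0.10 ± 0.13, and 0.08 ± 0.17 with the mean of its probe sets.

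Over all arrays, the main fit compared the members between preconditioned and sham arrays with neither run nor sample number in the model. limma called 0 of the 10, where 0.891% of all probe sets were called, and 4 members (Crmp1, Dpysl3, Tubb2b and Gap43) had an unadjusted p under 0.05, where 14.9% of probe sets had. The smallest adjusted p was 0.215. In a fit with sample number as a block, 1 member, Dpysl3, was called higher (0.26 ± 0.06, limma adjusted p = 0.0207). That fit called 589 of all probe sets, against 166 without the block. With run as a covariate, limma called 0 members and 502 of all probe sets. The sources used here do not say whether a number marks a pair. Within the run, 19 of 20 preconditioned arrays correlated best with the sham array of their own number, so the main fit may ignore a pairing. All 10 differences were positive, from 0.02 for Tubb3 to 0.26 ± 0.11 for Dpysl3, with a median of 0.10 against -0.02 over all probe sets. Of the 20 preconditioned arrays, 16 lay above the sham median for Dpysl3, 17 for Crmp1 and 16 for Tubb2b. With quantile normalization 7 were positive and the median was 0.02, while leaving out preconditioned arrays 5 and 6 gave 9 and 0.07, with Tubb3 at -0.03. Median centring went the other way, with 10 positive and a median of 0.14.

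In numbers 1 to 5 limma called 0 members, against 2.39% of all probe sets, and 3 had an unadjusted p under 0.05, against 16.6%. The median difference was 0.14, against -0.03 over all probe sets. Crmp1 was measured at 12.11, 11.98, 12.02, 12.07 and 12.40 in preconditioned arrays and at 11.80, 12.01, 11.99, 11.81 and 11.88 in sham arrays, a difference of 0.22 ± 0.08 (limma adjusted p = 0.129). Only the lowest preconditioned array and the highest sham arrays overlapped. Tubb2b and Gap43 differed by 0.23 ± 0.10 and 0.20 ± 0.10 (limma adjusted p of 0.212 and 0.286). Dpysl5 was the 1 member whose preconditioned arrays all lay above the sham arrays, where 2% of probe sets did, with a difference of 0.15 ± 0.09 (0.396). Its lowest preconditioned value, 10.7633, barely exceeded its highest sham value, 10.763. Preconditioned array 5 held the highest level of Dcx, Dpysl5, Crmp1, Gap43, Stmn2, Tubb3 and Tubb2b in this run. Without arrays 5 and 6 the members' median was 0.08, and Crmp1, Tubb2b and Gap43 differed by 0.15, 0.13 and 0.11. With quantile normalization the median was -0.02 with 4 of 10 positive, and with median centring it was 0.21 with 10 of 10 positive.

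In numbers 6 to 10 the largest difference was that of Dpysl3. Preconditioned arrays gave 10.17, 9.33, 8.83, 10.01 and 10.01, and sham arrays 9.39, 8.80, 8.82, 9.32 and 9.29. Preconditioned arrays 6, 9 and 10 lay above all sham arrays of the run, and arrays 7 and 8 lay within their range. The difference was 0.55 ± 0.18 (limma adjusted p = 0.0898), not called. With sample number as a block it was 0.55 ± 0.11 and was called (limma adjusted p = 0.00511). That fit called 677 of all probe sets in this run, against 413 without the block. Leaving out preconditioned array 8 gave 0.76 ± 0.16 and a call (limma adjusted p = 0.00625), while over all arrays left out in turn the adjusted p lay between that value and 0.292.

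Also in 6 to 10, Tubb3 had the only negative difference, -0.13 ± 0.09 (limma adjusted p = 0.460). Its preconditioned arrays measured 12.24, 11.67, 11.75, 11.63 and 11.65, and its sham arrays 11.97, 11.96, 11.90, 11.92 and 11.88. Array 6 was the highest of the 10 and the other 4 preconditioned arrays lay below all sham arrays. Without arrays 5 and 6 Tubb3 was called lower (-0.25 ± 0.07, limma adjusted p = 0.0423), as it was with quantile normalization (-0.26 ± 0.05, 0.00429). limma called 0 members in this run, against 2.22% of all probe sets, and 3 had an unadjusted p under 0.05, against 16.8%. The median was 0.15 against -0.02, with 9 positive, and without arrays 5 and 6 it was 0.10. With quantile normalization it was 0.04, with 7 positive, and with median centring 0.22, with 9 positive.

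In numbers 11 to 15 all 10 differences were positive, with a median of 0.13 against 0.00 over all probe sets and a largest value of 0.26 ± 0.18 for Dpysl3. limma called 0 members and 0.0698% of all probe sets, and 1 member, Tubb2b (0.21 ± 0.10), had an unadjusted p under 0.05, against 9.85%. With quantile normalization 7 were positive, and with median centring 9. In numbers 16 to 20 the signs were mixed, 4 positive and 6 negative, with a median of -0.03. limma called 0 members and 0% of all probe sets there, and at an unadjusted p under 0.05 there were 0 members against 5.11% of probe sets. In the last 3 runs, 0 members had groups that did not overlap. The shares of all probe sets that were higher or lower without overlap were 1.65% and 2.01% in 6 to 10, 1.15% and 1.06% in 11 to 15, and 0.628% and 0.51% in 16 to 20.

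**Figure D3:**
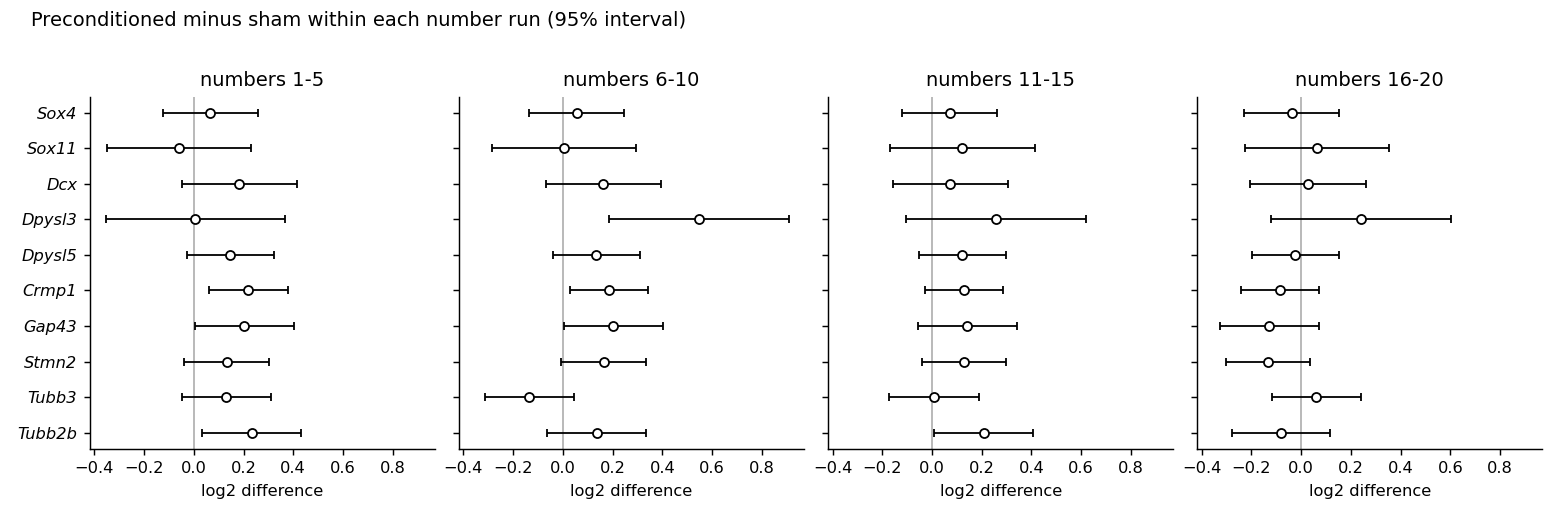
Preconditioned minus sham log2 difference (horizontal axes) of the 10 members in each of the 4 number runs, with 95% intervals of the limma fit. All points are open because 0 members had an adjusted p under 0.05, and Dpysl3 in numbers 6 to 10, at 0.55, has the largest difference.

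The interaction test asked whether the preconditioned minus sham difference varied between the 4 runs. limma called 0 members (smallest adjusted p 0.359, Crmp1) and 0.762% of all probe sets, and 1 member had an unadjusted p under 0.05, against 12.9% of probe sets. The within-run comparison for 1 to 5 and the sham comparison of 16 to 20 with 1 to 5 share sham arrays 1 to 5, and their values are therefore not independent.

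**Figure D4:**
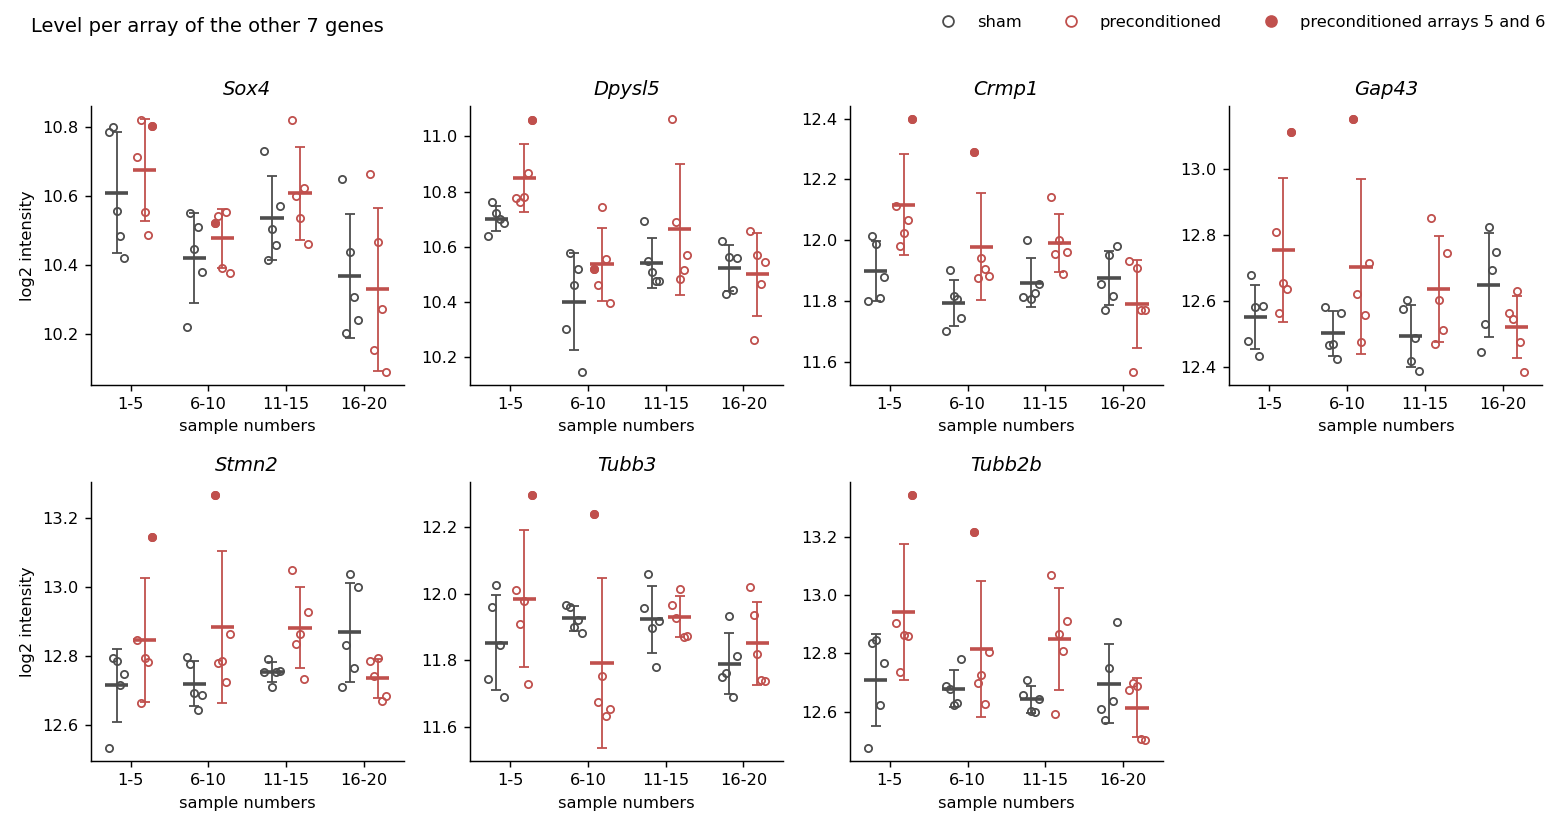
Log2 intensity (vertical axes, each with its own range) of the other 7 members on each array, by number run and group, with the mean and 1 SD of 5 arrays and filled circles for preconditioned arrays 5 and 6. In Crmp1, Gap43, Stmn2, Tubb3 and Tubb2b the filled circles lie above all other arrays of their group and run.

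Of 45 other listed genes of young neurons and growth cones, 42 were measured. Between sham 16 to 20 and 1 to 5, 8 were lower and 1 higher, with a median of -0.05. Of all probe sets, 7.88% were lower and 6.94% higher there. Lower genes included Pak3, a kinase of the actin skeleton (-0.53 ± 0.15, limma adjusted p = 0.0131), Cttnbp2, a cortactin-binding protein (-0.44 ± 0.13, 0.0169), Elavl2, a neuronal RNA-binding protein (-0.38 ± 0.07, 0.000264), and Cd24, a surface protein of young neurons (-0.30 ± 0.10, 0.0311). The higher gene was Stmn3, a relative of Stmn2 (0.24 ± 0.08, 0.0458). The call of Cttnbp2 was lost without sham array 4, 18 or 20 (up to 0.0652), that of Cd24 without 1, 2, 17, 19 or 20 (up to 0.125), and that of Stmn3 without 1, 4, 17, 18, 19 or 20 (up to 0.153). In preconditioned arrays 18 were lower and 1 higher, with a median of -0.22. The shares of all probe sets there were 8.03% lower and 9.58% higher. Without arrays 5 and 6, 14 of these genes were lower. Counts of lower genes under the other scalings lay between 4 and 11 in sham arrays and were 13 in preconditioned arrays.

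Genes of mature neurons were higher in the last run. Of 22 measured of 24 listed, 15 were higher and 0 lower in sham 16 to 20 than in 1 to 5, with a median of 0.41. In preconditioned arrays 8 were higher and 0 lower, with a median of 0.32. The shares of all probe sets called higher were 6.94% in sham and 9.58% in preconditioned arrays. Camk2a, a kinase of excitatory synapses, rose by 1.02 ± 0.29 in sham arrays (limma adjusted p = 0.0150). Nefh, the heavy neurofilament, rose by 0.67 ± 0.17 (0.00730), Syn2, a synaptic vesicle protein, by 0.57 ± 0.10 (0.000286) and Rbfox3, the antigen known as NeuN, by 0.56 ± 0.14 (0.00708). The call of Camk2a was lost without sham arrays 1, 2, 19 or 20 (up to 0.0708). Under the other scalings 14 or 15 were higher in sham arrays and 4 or 10 in preconditioned arrays.

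Other cell types moved between the same runs, and their part in the members' values was not tested. Of all probe sets, 6.94% were higher and 7.88% lower in sham arrays, and 9.58% and 8.03% in preconditioned arrays. Microglial genes, 7 of 8 measured with Itgam below the filter, had 6 higher in sham and 5 higher in preconditioned arrays, and their mean log2 level ranged from 5.89 to 6.43 in sham 1 to 5 and from 6.38 to 7.10 in sham 16 to 20. Of 10 astrocyte genes, 5 were higher in sham and 3 in preconditioned arrays. Of 9 neural progenitor genes, with Eomes below the filter, 1 was lower in sham arrays (Top2a) and 3 in preconditioned arrays (Vim, Fabp7 and Mki67), and their mean level ranged from 7.91 to 8.16 in sham 1 to 5 and from 7.70 to 8.02 in sham 16 to 20. Of 8 oligodendrocyte lineage genes, 4 were higher in sham arrays, with a median of 0.34, and 3 were higher and 1 lower in preconditioned arrays, with a median of 0.11. Of 7 genes of cortical projection neurons, 2 were lower in either group, with medians of -0.21 and -0.12. Of 6 striatal genes, 4 were higher in sham arrays, with a median of 0.32, and the median in preconditioned arrays was 0.05 with no call. Both measured blood genes were lower in preconditioned arrays. The actin ratio lay between 1.51 and 1.90 (median 1.69) in sham 1 to 5 and between 1.46 and 1.63 (median 1.55) in sham 16 to 20. In preconditioned arrays it lay between 1.69 and 1.82 (median 1.75) in 1 to 5 and between 1.45 and 1.61 (median 1.52) in 16 to 20, without overlap, and its part in the 6 lower members was not tested.

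**Figure D5:**
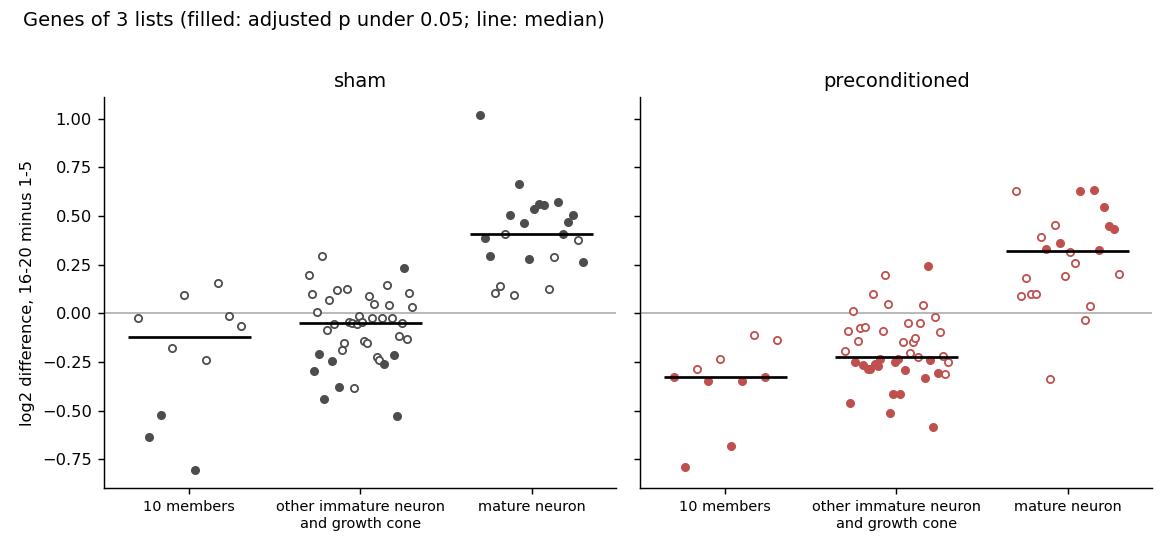
Log2 difference between numbers 16 to 20 and 1 to 5 (vertical axis) of each measured gene of 3 lists, in sham and preconditioned arrays, with filled points for a limma adjusted p under 0.05 and lines for the list median. The medians of the members are -0.12 and -0.33 and those of the mature neuron genes 0.41 and 0.32.

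Between preconditioned and sham arrays, 34 of the 42 other genes of young neurons had positive differences over all arrays, with a median of 0.05, and so had 17 of the 22 mature neuron genes, with a median of 0.06. The median over all probe sets was -0.02. In 1 to 5, 6 to 10 and 11 to 15 the positive differences numbered 33, 33 and 30 of 42 and 17, 18 and 16 of 22, and in 16 to 20 they numbered 16 of 42 and 10 of 22. With quantile normalization, tried after seeing the data, 22 of 42 and 13 of 22 were positive over all arrays. With median centring, tried likewise, 38 of 42 and 18 of 22 were. Without preconditioned arrays 5 and 6 it was 37 of 42 and 14 of 22. Kif5c, a kinesin heavy chain of neurons, was higher over all arrays by 0.20 ± 0.04 (limma adjusted p = 0.0130) and in numbers 1 to 5 by 0.32 ± 0.08 (0.0127). Ina, an intermediate filament of young neurons, was higher in numbers 1 to 5 by 0.24 ± 0.06 (0.0300). Without preconditioned arrays 5 and 6 the call of Ina was lost (0.0724), and that of Kif5c in 1 to 5 was lost without array 5 alone (0.0639) and with the mean of its probe sets (0.306). The call of Ina was also lost with quantile normalization (0.152) and without preconditioned array 1 or 2 or sham array 3 or 4 (up to 0.116). Genes of other cell types also differed between preconditioned and sham arrays, and their part in the members' values was not tested. Of the astrocyte genes, Gfap and Aldoc were higher over all arrays (0.66 and 0.26) and in 6 to 10 (1.02 and 0.42), and Gfap in 11 to 15 (1.07). Of the oligodendrocyte lineage genes, Pdgfra was higher over all arrays (0.22), in 1 to 5 (0.34) and in 6 to 10 (0.45). Of the endothelial and mural genes, Vwf was higher over all arrays (0.49), in 1 to 5 (0.49), in 6 to 10 (0.54) and in 11 to 15 (0.61), Pecam1 and Flt1 were higher in 1 to 5 (0.53 and 1.16), and Tek was lower in 6 to 10 (-0.51). The neural progenitor gene Hes5 was lower in 6 to 10 (-0.74), and Prox1, from the list for hippocampus and thalamus, was higher in 1 to 5 (0.33). These are all the calls of the cell type lists in these 5 comparisons (limma adjusted p from 7.5e-05 to 0.049).

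The genes whose 8 group-by-run means were most like the mean profile of the members were Rell1 (Pearson r of 0.971), Cul7 (0.97), Kbtbd2 (0.958), Podxl (0.954) and Eftud2 (0.951), out of 5907 genes whose means spanned at least 0.3. This is a description over 8 means that share arrays of the same runs, and the genes were picked for it. The mean profile was highest in preconditioned 1 to 5, at 0.22 above its own average, then 0.10 in sham 1 to 5, and lowest in preconditioned 16 to 20, at -0.14, next to sham 16 to 20 and sham 6 to 10, at -0.13 and -0.12.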

How the data were processed

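The deposited table holds linear intensity values from the authors, 1 per probe set and array. The sources used here do not name their software. The mean of an array's deposited values, leaving out 2% of probe sets at either end, was between 150.04 and 150.06 on every array, so arrays had been scaled to a common mean. A floor of 16 was applied to the intensities before log2. Of 31042 non-control probe sets, 18625 at or above the 40th percentile of mean level were kept. Gene names came from the platform annotation. limma 3.58.1 in R 4.3.3 was fitted (lmFit, eBayes with a mean trend) to all arrays without covariates and to 8 group-by-run means with contrasts. Tests were two-sided, with Benjamini-Hochberg adjustment over all kept probe sets at 0.05. Contrasts beyond neighbouring sham runs and 16 to 20 against 1 to 5 were added after the design was fixed. The main fits were tried on simulated data for some contrasts only. These were preconditioned against sham over all arrays, in 1 to 5 and in 16 to 20, 16 to 20 against 1 to 5 in each group, and both F-tests. Apart from the differences put in, the simulated data had none between runs. The alternative fits and the other contrasts were not tried on them. The named genes are the 10 members, up to 4 called genes per direction of the 2 neuronal lists, and the 5 genes most like the members. Alternatives covered normalization, floor, filter, probe set choice, the fit and left-out arrays. Members and lists were chosen with earlier results of these data known. Python 3.11.15 and matplotlib 3.10.9 drew the figures.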

Additional observations from a re-analysis of the deposited data

Results flagged for a closer look

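In 80 groups of 5 arrays (10 genes, 2 groups, 4 runs), 7 single arrays stood far from the other 4 of their group by Dixon's criterion (ratio of gap to range above 0.71), where chance gives about 1 in 20. Preconditioned array 6 was the highest of its run for Crmp1 (12.29, the next 11.94), Stmn2 (13.27, the next 12.86) and Tubb3 (12.24, the next 11.75). Preconditioned array 5 was the highest of its run for Tubb2b (13.34, the next 12.90). These 2 arrays also had the lowest array medians. The others were Dcx in preconditioned array 10 (10.83, the lowest), Dcx in sham array 11 (10.85, the highest) and Crmp1 in sham array 12 (12.00, the highest).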

How the results depend on the processing

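Over all alternatives, the count of members called was 0 for preconditioned minus sham over all arrays except 1 (Dpysl3) with the replicate block. In numbers 6 to 10 it was 1 under quantile normalization and without preconditioned arrays 5 and 6 (Tubb3, lower), 1 with the replicate block (Dpysl3, higher), and 0 to 1 with single arrays left out (1 without preconditioned array 8, Dpysl3). In the other runs and for the interaction it was 0 under every alternative run. Quantile normalization raised the count to 5 across the 4 sham runs and to 5 for sham 16 to 20 against 1 to 5, and turned Stmn2 in preconditioned arrays to 0.14. Sample numbers were not treated as pairs in the main fits, because the rule used asked for a correlation over 0.1 in every pair. Same-numbered arrays deviated together with a correlation of 0.03 to 0.39, over 0.1 in 15 of 20 pairs. Within the run, 19 of 20 preconditioned arrays correlated best with the sham array of their own number. The main fits may therefore ignore a pairing of the arrays. With the replicate block Dpysl3 gave 0.26 ± 0.06 over all arrays (limma adjusted p = 0.0207) and 0.55 ± 0.11 in numbers 6 to 10 (0.00511), and no other member's call changed. All probe sets called over all arrays numbered 166, against 89 without the filter, 101 without preconditioned arrays 5 and 6, 502 with run as a covariate, 589 with the block and 102 to 251 with single arrays left out (lowest without preconditioned array 10, highest without 18). In numbers 1 to 5 the count was 445, 161 in the 10 arrays alone and 268 without preconditioned array 5. In 6 to 10 it was 413, against 96 in the 10 arrays alone, 265 without arrays 5 and 6, 677 with the block and 217 without sham array 8. In 11 to 15 it was 13, against 3 in the 10 arrays alone and without preconditioned array 12, 22 with quantile normalization, 34 with the block and 41 without arrays 5 and 6. Across the 4 sham runs it was 2547, and 1603 without sham array 20, and for sham 16 to 20 against 1 to 5 it was 2760, and 1835 without sham array 2. Median centring changed the split of higher and lower calls from 113 and 53 to 223 and 23 over all arrays, from 230 and 215 to 347 and 85 in 1 to 5 (262 and 149 with quantile normalization), and from 204 and 209 to 409 and 81 in 6 to 10, and from 9 and 4 to 6 and 5 in 11 to 15. The causes of these changes were not tested. With 5 arrays per group and run, differences near 0.2 mostly did not pass the test.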
